A study of Mus musculus with 2 samples.

Results

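The small leucine-rich proteoglycans are secreted proteins with a core of leucine-rich repeats that line the collagen fibrils of connective tissue, and 8 of their genes were followed: Dcn, Lum, Bgn, Fmod, Ogn, Prelp, Aspn and Podn. They were taken by symbol from the 27998 genes listed for both libraries, and all 8 were found once. Cultured lung fibroblasts of C57BL/6 mice, a common inbred strain, had been profiled by droplet single-cell sequencing of RNA 3′ ends, in which every captured molecule carries a unique molecular identifier (UMI). There were 2 libraries, 1 of stimulated and 1 of control cells. The stimulated library came from wild-type cells treated at passage 3 for 14 days, and the protocol names 10 µM rosiglitazone, 1 µM SB4315442 and 4 µM rhBMP4, alone or combined, without saying which of them this library received. The control library came from wild-type cells of the same lung that were given vehicle in the same medium for as long. The medium held 10% FBS, and 1% ITS+3 supplement is named for inducing a lipofibroblast-like state. With 1 library per group no difference could be tested, and every interval below is a 95% interval that covers counting error only.

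In connective tissue the family members bind collagen through their repeats and set how fibrils grow, how thick they become and how far apart they lie. Decorin and biglycan carry chondroitin or dermatan sulfate chains, lumican and fibromodulin carry keratan sulfate, and several members also bind growth factors of the TGF-beta family. In the lung they are products of fibroblasts, and decorin and lumican are in wide use as fibroblast markers. Decorin (Dcn), biglycan (Bgn) and asporin (Aspn) form class I, lumican (Lum), fibromodulin (Fmod) and prolargin (Prelp) belong to class II, osteoglycin (Ogn) to class III and podocan (Podn) to class V.

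The stimulated library kept 7468 of 7698 deposited barcodes, with a median of 15379.5 UMIs per cell, and the control library 4703 of 5016, with a median of 19634. There were 46 kept barcodes that occurred in both libraries. Fibroblast markers summed to 5013 CPM (a gene's UMIs scaled to the library's total) in the stimulated library and 11959 CPM in the control library, with none at 0 in either, and Dcn and Lum are 2 of those 12 markers. The 12 macrophage markers summed to 14.5 CPM in stimulated and 755 CPM in control cells, and the defining macrophage marker Adgre1 was at 0 in stimulated cells. The 9 mesothelial markers summed to 28.8 CPM in stimulated and 29.2 CPM in control cells, and the 8 epithelial markers to 0.230 CPM in stimulated and 0.282 CPM in control cells, with Epcam and Sftpc at 0 in control cells. Endothelial markers summed to 12.6 CPM in stimulated and 12.4 CPM in control cells, smooth muscle and pericyte markers to 181 CPM in stimulated and 628 CPM in control cells, lymphocyte markers to 0.111 and adipocyte markers to 0.794 CPM in stimulated cells, against 0.655 and 0.0790 CPM in control cells. Over the 8787 genes that averaged 5 CPM or more, the median log2 fold of stimulated over control was -0.06.

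Most of the family was lower after stimulation, and its leading member was not: Dcn, Lum, Ogn, Prelp and Podn were lower in the stimulated library, and Bgn stayed within 1.04-fold. That is 5 of the 6 members that reached a mean of 5 CPM, at least 1.5-fold lower, where 12% of all genes tested were lower by as much, and 0 were higher, where 7.75% of all genes were. Lum, Ogn and Podn reached the mean of 5 CPM only through their control level, so a fall was nearly set by the filter, and the count is a description and no support. Fmod, with a mean of 3.94 CPM, and Aspn, with 0.867 CPM, were below it.

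Bgn (ENSMUSG00000031375), whose product binds collagen and growth factors and can also signal through Toll-like receptors when set free, was by UMIs the leading member in both libraries. It had 1698 CPM (1690.5 to 1705) in stimulated cells, from 198984 UMIs, against 1762 CPM (1753 to 1770.3) in control cells, from 156027 UMIs. The fold was 0.964 (0.957 to 0.970), a log2 fold of -0.05, next to the median of all genes, and its sign turned with the scaling, to 0.05 with TMM factors. Dcn (ENSMUSG00000019929), the class I relative that restrains fibril growth and binds TGF-beta, had 8.89 CPM (8.36 to 9.45) in stimulated cells and 186 CPM (183 to 189) in control cells. It was 20.9-fold lower (19.6 to 22.3) in the stimulated library. Within class I the balance of these close relatives differed by library. There were 191 Bgn UMIs for each Dcn UMI in stimulated cells, against 9.48 in control cells. Aspn (ENSMUSG00000021388), asporin, which binds collagen in place of decorin and lacks the sugar chain, was near the limit of counting at 0.887 CPM in stimulated and 0.847 CPM in control cells, from 104 and 75 UMIs. Its fold of 1.05 (0.771 to 1.43) leaves both a fall and a rise possible.

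All 3 genes of class II were lower after stimulation. Lum (ENSMUSG00000036446), lumican, a keratan sulfate proteoglycan that orders fibril spacing, had 19 UMIs or 0.162 CPM (0.0976 to 0.253) in stimulated cells, against 1724 UMIs or 19.5 CPM (18.6 to 20.4) in control cells. It was 120-fold lower (76.6 to 199.9), the widest fold of the 8 members. On the log2 scale its fold was -6.91, and it ranged from -7.69 in non-cycling cells to -6.26 when every cell had equal weight. Fmod (ENSMUSG00000041559), fibromodulin, which shares its collagen site with lumican, had 0.401 CPM (0.295 to 0.533) in stimulated and 7.49 CPM (6.93 to 8.08) in control cells and was 18.7-fold lower (13.9 to 25.7). Prelp (ENSMUSG00000041577), prolargin, which binds collagen and the heparan sulfate of basement membranes, had 23.8 CPM (22.9 to 24.7) in stimulated and 82.4 CPM (80.5 to 84.3) in control cells. Prelp was thereby 3.47-fold lower (3.32 to 3.62) and held the second highest level of the family after Bgn in stimulated cells, where Dcn came second in control cells. These orders are of molecules counted at the 3′ end, which do not scale with transcript length but can differ in capture between genes.

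The members of the other classes were lower as well. Ogn (ENSMUSG00000021390), osteoglycin or mimecan, had 1.69 CPM (1.46 to 1.94) in stimulated and 8.42 CPM (7.83 to 9.05) in control cells and was 4.99-fold lower (4.26 to 5.86). Podn (ENSMUSG00000028600), podocan, a collagen-binding member described as a brake on smooth muscle cell growth, had 3.97 CPM (3.62 to 4.35) in stimulated and 13.3 CPM (12.6 to 14.1) in control cells, 3.35-fold lower (3.01 to 3.74). Podn overlaps Scp2 on the same strand in the GENCODE M21 annotation, and Scp2 had 12814 UMIs in stimulated and 15533 in control cells, so reads of one could have been counted for the other and the Podn values are uncertain. Ogn and Aspn lie within Cenpp on the opposite strand, which had 457 UMIs in stimulated and 304 in control cells, and whether counting used strand is not given in the sources used here. Dcn, Lum, Bgn and Fmod overlap no other gene there.

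**Figure D1:**
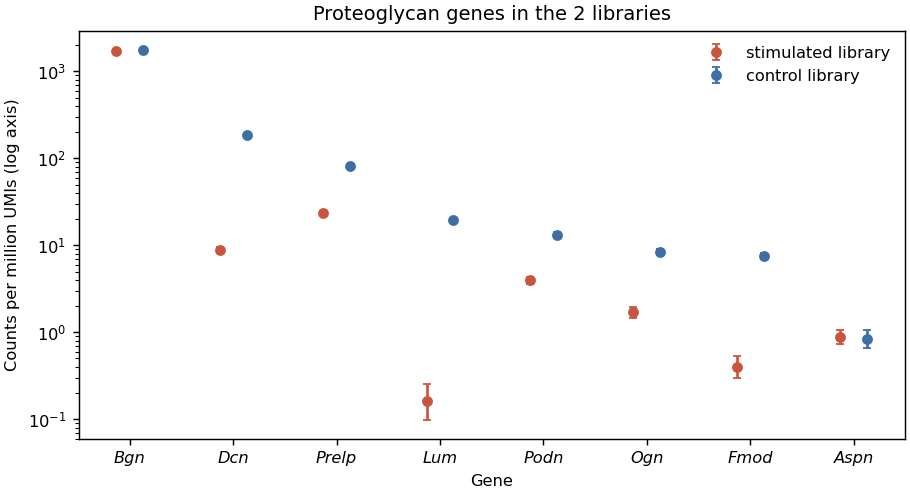
Level of each of the 8 genes in CPM (log axis) in the stimulated and the control library, with 95% counting intervals. Bgn lies at 1698 CPM in stimulated and 1762 CPM in control cells, the intervals of Aspn overlap, and the other 6 genes are lower in stimulated cells, from Lum at 0.162 against 19.5 CPM to Podn at 3.97 against 13.3 CPM.

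By counts the family in stimulated cells was almost biglycan alone. Bgn held 97.7% of the members' UMIs in stimulated cells and 84.7% in control cells, and Dcn held 0.512% in stimulated and 8.93% in control cells. All 8 together had 1738 CPM in stimulated and 2079 CPM in control cells. At an equal depth of 5000 UMIs per cell, 84.3% of stimulated and 42.3% of control cells had UMIs of exactly 1 member. No stimulated cell had UMIs of 4 or more members, where 180 control cells had 4, 33 had 5 and 3 had 6.

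The start regions of the 6 members with an entry in the promoter table are shown, and Dcn and Lum had no entry. They set the sequence of Bgn, which stayed near its control level, beside that of the lower Fmod, Ogn, Prelp and Podn. Aspn, whose direction is not set, is shown as well. They are the 150 bases that precede the annotated start, read 5′ to 3′ on the gene's own strand, from RefSeq on GRCm38.p6, and Podn has 2 entries. Capitals mark the GC box, searched as GGGCGG or its reverse CCGCCC, and the nuclear receptor letters AGGTCA or TGACCT.
Bgn, chrX:73483451-73483600, + strand: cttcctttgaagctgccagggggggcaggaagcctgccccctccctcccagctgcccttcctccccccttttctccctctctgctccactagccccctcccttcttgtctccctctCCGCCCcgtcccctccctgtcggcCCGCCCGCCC
Fmod, chr1:134037104-134037253, + strand: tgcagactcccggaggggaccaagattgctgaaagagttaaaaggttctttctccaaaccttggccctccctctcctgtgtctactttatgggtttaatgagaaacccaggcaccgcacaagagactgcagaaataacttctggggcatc
Ogn, chr13:49607865-49608014, + strand: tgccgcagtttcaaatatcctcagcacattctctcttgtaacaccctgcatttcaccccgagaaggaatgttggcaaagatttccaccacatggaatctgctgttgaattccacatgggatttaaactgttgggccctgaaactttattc
Prelp, chr1:133921402-133921551, - strand: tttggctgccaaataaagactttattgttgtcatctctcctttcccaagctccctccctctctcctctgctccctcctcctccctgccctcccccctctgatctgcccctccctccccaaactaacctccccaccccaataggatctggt
Aspn, chr13:49544293-49544442, + strand: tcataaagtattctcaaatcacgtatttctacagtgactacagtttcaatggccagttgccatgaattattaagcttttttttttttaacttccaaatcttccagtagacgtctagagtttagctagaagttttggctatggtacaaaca
Podn, chr4:108031955-108032104, - strand: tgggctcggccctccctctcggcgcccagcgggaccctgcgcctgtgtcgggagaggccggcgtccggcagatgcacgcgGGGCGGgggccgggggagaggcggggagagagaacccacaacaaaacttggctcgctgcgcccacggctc
Podn, chr4:108030987-108031136, - strand: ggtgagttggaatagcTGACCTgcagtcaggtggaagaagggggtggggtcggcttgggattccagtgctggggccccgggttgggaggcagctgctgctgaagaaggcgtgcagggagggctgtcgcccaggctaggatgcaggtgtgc

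With only Bgn near its control level and no window for Dcn or Lum, the matches could not sort the genes by their change. The Bgn window held 3 GC box matches, of which the last 2 overlap each other, and the Aspn window held 0. Among the lower genes, 1 Podn window held 1 GC box match, and the other Podn window and those of Fmod, Ogn and Prelp held 0. Of all 32851 promoters of that length in the table, 28.6% held at least 1. The letters AGGTCA or TGACCT occurred once, in the second Podn window, against 8.58% of all promoters. The TATA box letters TATAAA, or TTTATA, stood in none of the 7 windows, against 7.57% of all promoters. Letters in a window describe the sequence and show no binding.

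The members directly next to each other on a chromosome, Dcn with Lum and Prelp with Fmod, were all lower in stimulated cells, by unlike folds. In the RefSeq order Dcn is followed by Lum, Kera and Epyc on chromosome 10, Optc, Prelp and Fmod are neighbours on chromosome 1, and Ecm2, Aspn, Omd and Ogn on chromosome 13. On chromosome 10 Dcn and Lum both fell, while Kera had 0 UMIs in both libraries and Epyc 2 UMIs in stimulated and 4 in control cells. On chromosome 13, Ogn fell beside Omd, with 4 UMIs in stimulated and 3 in control cells, and Ecm2, with 13 in stimulated and 11 in control cells. Counts as low as those of Kera, Epyc, Omd and Ecm2 cannot show a change. Among the other family genes only Tsku, tsukushi, a secreted BMP antagonist known from chick and mouse, reached a mean of 5 CPM, with 16.1 CPM in stimulated and 11.5 CPM in control cells and a fold of 1.41 (1.3 to 1.52). Chad had 0 UMIs in both libraries, and Nyx 7 UMIs in stimulated and 1 in control cells. Podnl1 had 86 in stimulated and 147 in control cells, Chadl 189 in stimulated and 177 in control cells, and Optc 136 in stimulated and 177 in control cells. All UMI counts given here are raw, and the stimulated library held 117193148 UMIs against 88573140 in the control library. An equal count is thus a lower level in stimulated cells, and the larger Chadl count is not a higher level.

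The members differed in how their UMIs were spread over cells. Bgn was found in 99.8% of stimulated (99.7 to 99.9) and 98.5% of control cells (98.1 to 98.9) at 5000 UMIs per cell. Its UMIs were spread as widely: 50% of its UMIs lay in 32.3% of stimulated and 30.7% of control cells. Dcn was found in 3.47% of stimulated cells (3.05 to 3.94) and 37.9% of control cells (36.4 to 39.4). An even, random spread of the same number of Dcn UMIs would have reached 61.3% of control cells, so Dcn sat in fewer cells than its level allows. In the control library 276 cells, or 6.77%, held 50% of the Dcn UMIs, the top 10% of cells held 60.6%, and 1 cell had 35 Dcn UMIs of its 5000.

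Lum was scarcer and narrower still. It had UMIs in 0.0745% of stimulated cells, that is 5 cells with 1 UMI each, and in 6.25% of control cells (5.53 to 7.04), against 11.2% under an even spread. In the control library 60 cells, or 1.47%, held 50% of the Lum UMIs. Prelp was found in 9.63% of stimulated (8.93 to 10.4) and 24.8% of control cells (23.5 to 26.2), where an even spread gives 11.5% in stimulated and 36.7% in control cells, and 5.96% of control cells held 50% of its UMIs. Podn, Ogn and Fmod were found in 6.5%, 3.78% and 3.56% of control cells, against 7.09%, 4.01% and 3.97% under an even spread. Their stimulated shares were 1.88%, 0.894% and 0.239%. Aspn was found in 0.373% of stimulated and 0.491% of control cells.

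Set beside genes of a like level (within 1.5-fold), the share found over the share of an even spread was 0.619 for Dcn in control cells, where the median gene had 0.956 and 3 of 549 genes were lower. The same ratio was 0.560 for Lum, with 16 of 2323 genes lower, and 0.676 for Prelp, with 18 of 1071 genes lower. It was 0.897 for Fmod, with 97 of 2350 genes lower, 0.916 for Podn, with 144 of 2586 lower, and 0.941 for Ogn, with 179 of 2342 lower, each against a median of 0.99. For Bgn it was 0.985, with 10 of 42 genes lower. An even spread at the Bgn level reaches 99.99% of control cells, so the ratio shows little of how unevenly Bgn counts lie. In stimulated cells the ratio was 0.794 for Dcn, with 21 of 2474 genes of its level lower, 0.835 for Prelp, with 21 of 2239 lower, and 0.936 for Podn, with 70 of 1664 lower. The ratio nears 1 as a gene's level falls, so it is not compared between the libraries.

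Free RNA from broken cells can put UMIs of abundant genes into other cells. Doublets, barcodes that hold more than 1 cell, can do the same and were not called. The shares below do not tell these apart. Among 130 macrophage-like control cells of at least 5000 UMIs, 72.3% had a Bgn UMI, 13.8% (8.42 to 21.0) a Dcn UMI and 7.69% a Prelp UMI, against 99.8%, 38.8% and 26.0% of fibroblast-like control cells. Fmod was found in 1.54%, Ogn and Podn in 0.769% each, and Lum and Aspn in 0 of 130, which allows a share of up to 2.31% by 3 counts of 130, or 2.80% by the exact interval. Median depth was 11331.5 UMIs in the macrophage-like and 21547 in the fibroblast-like cells. Shares of control cells are to be read above these values. The stimulated library, with 1 macrophage-like cell, gives no such measure. The 13.8% comes from the control library, where the Dcn level was far higher, and sets no floor for the stimulated Dcn share of 3.47%. That stimulated share is not read as expression over the whole library. How much of it is free RNA or doublets was not tested. Without thinning, Dcn was found in 8.52% of stimulated and 61.7% of control cells, Prelp in 21.1% of stimulated and 45.3% of control cells, Lum in 0.254% of stimulated and 12.7% of control cells, and Bgn in 99.0% of stimulated and 97.8% of control cells.

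**Figure D2:**
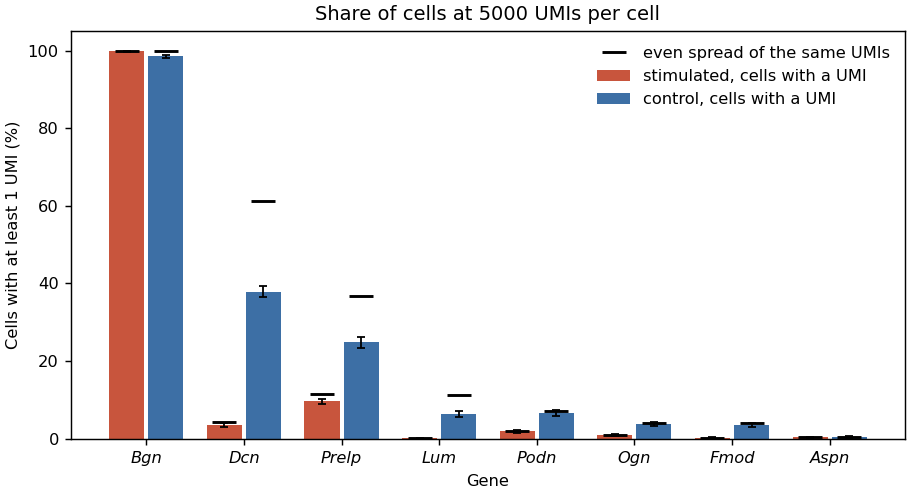
Share of cells with at least 1 UMI of each gene in stimulated and control cells, each thinned to 5000 UMIs, with 95% binomial intervals; black ticks give the share under an even spread of the same UMIs. In control cells the bars of Dcn (37.9%), Prelp (24.8%) and Lum (6.25%) stay far under their ticks, and Bgn is near 100% in both libraries.

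**Figure D3:**
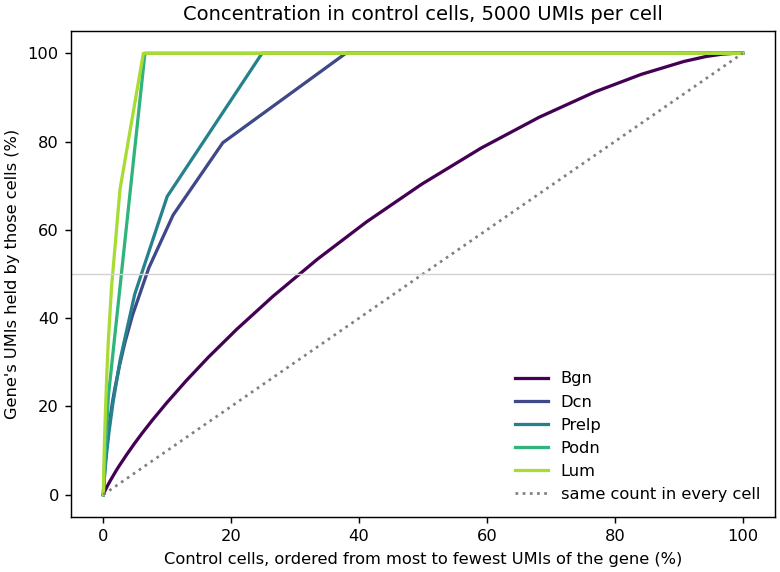
Cumulative share of a gene's UMIs (y, %) against control cells ordered from most to fewest UMIs of that gene (x, %), at 5000 UMIs per cell, for 5 genes, with a dotted line for the same count in every cell. The curves cross 50% at 30.7% of cells for Bgn, 6.77% for Dcn, 5.96% for Prelp, 2.82% for Podn and 1.47% for Lum; scarce genes rise steeply also when spread at random.

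To find which cells those were, cells of both libraries were clustered with the 8 members and the 10 other family genes left out. The 16 clusters were numbered from 0, and most were made almost entirely of 1 library, so a cluster may stand for its library and not for a cell type. Fibroblast-like clusters held 6150 of the stimulated and 3713 of the control cells, and naming used a marker list that includes Dcn and Lum. The unnamed clusters held 1294 stimulated and 775 control cells.

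The largest shares of Dcn and Lum UMIs for their cell numbers lay in the same pair of larger control clusters. Cluster 8 (387 control cells; led, apart from Dcn itself, by Serpinf1, Ctsl, Pcolce and Hspa5) had 572 CPM of Dcn (558 to 587) and 40.4 CPM of Lum (36.7 to 44.4). Cluster 11 (290 control cells; led by Igfbp5, Tnc, Col8a1 and Npy1r beside Lum) had 424 CPM of Dcn (407 to 443) and 111 CPM of Lum (103 to 121). These clusters held 14.4% of control cells, 50.3% of the Dcn UMIs and 58.4% of the Lum UMIs. Without these control cells, an alternative chosen after the data were seen, the log2 fold of Dcn was -3.66, against -4.38 with them, and that of Lum was -5.93, against -6.91. By level alone, the small, shallow and unnamed cluster 13 (59 control cells) stood above cluster 11 for Dcn, at 454 CPM from 97 UMIs. Its Lum level was 14.0 CPM, from 3 UMIs. The largest control cluster, number 2, led by Meg3, Cemip, Adamts5 and Timp3, had 98.7 CPM of Dcn and 10.3 CPM of Lum, and the cycling cluster 3 had 111 CPM of Dcn and 13.4 CPM of Lum.

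Within clusters 8 and 11 the spread still differed. At 5000 UMIs, Dcn was found in 79.3% of the cells of cluster 11, with a mean of 2.23 and a median of 2 UMIs, but in 57.4% of the cells of cluster 8, with a mean of 3.18 and a median of 1. Lum was found in 29.7% of cells of cluster 11 and 11.9% of cells of cluster 8. Cluster 9, led by Cxcl14, Sod3 and Gzme, had 156 CPM of Prelp (147 to 165), close to the 149 CPM (139 to 160.1) of cluster 11, but 2.02 CPM of Lum (1.13 to 3.34). At 5000 UMIs Prelp was found in 38.4% of cells of cluster 9 (33.4 to 43.6) and 44.1% of cells of cluster 11 (38.3 to 50.1). The small, shallow cluster 13 had a higher Prelp value, 187 CPM, from 40 UMIs in 59 control cells. Prelp was lowest in the mesothelial-like cluster 14, at 8.91 CPM of control cells. Bgn varied least, between 712 CPM in macrophage-like cluster 12 and 2373 CPM in cluster 11 among control clusters, and between 1137 and 1872 CPM among stimulated clusters of at least 20 cells.

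**Figure D4:**
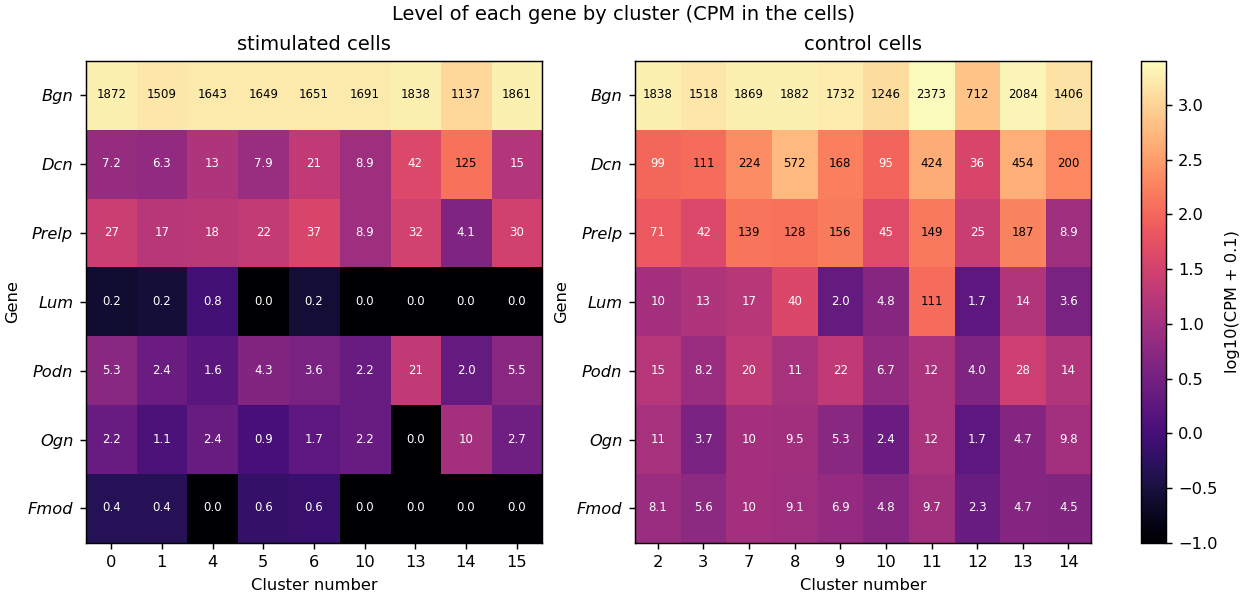
Level of 7 genes by cluster in stimulated cells (left) and control cells (right), as log10 of CPM plus 0.1 in colour and CPM in print. In control cells Dcn peaks in cluster 8 (572 CPM) and Lum in cluster 11 (111 CPM), and in stimulated cells Dcn is highest in cluster 14 (125 CPM).

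Stimulated and control clusters that shared most leading genes, again without the family, were paired, an alternative chosen after the data were seen. Clusters 0 and 2 shared 13 of 50 leading genes, 1 and 3 shared 43, 4 and 7 shared 41, 5 and 9 shared 20, and 6 and 8 shared 36. In each of the 5 pairs Dcn was lower in the stimulated cluster. The folds were 13.7 (12.3 to 15.3) in clusters 0 and 2, 17.6 (15.5 to 20.1) in 1 and 3, 16.8 (10.3 to 29.2) in 4 and 7, 21.3 (16.7 to 27.4) in 5 and 9, and 27.1 (23.8 to 31.0) in 6 and 8. These folds lie on both sides of the 20.9-fold between whole libraries, and the widest is in the pair whose control cluster had most Dcn. In that pair Dcn had 21.1 CPM in stimulated cluster 6 and 572 CPM in control cluster 8.

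Lum was lower in the stimulated cluster of every pair: 67.2-fold (33.8 to 157) in clusters 0 and 2, 70.1-fold (35.0 to 164) in 1 and 3 and 225-fold (61.9 to 1863) in 6 and 8. Lum had 1 UMI in cluster 4, a 21.0-fold difference (3.38 to 868) from cluster 7, and 0 UMIs in cluster 5, at least 5.98-fold lower than in cluster 9. Prelp was 2.61-, 2.51-, 7.69-, 6.93- and 3.42-fold lower in the pairs in the order above. Bgn folds were 1.02, 0.994, 0.879, 0.952 and 0.877. The share of all tested genes at least 1.5-fold lower was 12% in the pair 0 and 2, 11.5% in 1 and 3, 23.9% in 4 and 7, 16.7% in 5 and 9 and 14.2% in 6 and 8. Clusters 4 and 7 are shallow and unnamed. Cluster 5 is unnamed too, led by Des, Cck and Limch1, with 3 of 8 smooth muscle and pericyte markers seen, and is paired with the fibroblast-like cluster 9, in which 5 of 8 were seen. Aspn went both ways: it had 34 UMIs in cluster 1 and 1 in cluster 3, a fold of 14.6 (2.44 to 591), and 1 UMI in cluster 5 and 8 in cluster 9, 9.57-fold lower (1.28 to 425).

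**Figure D5:**
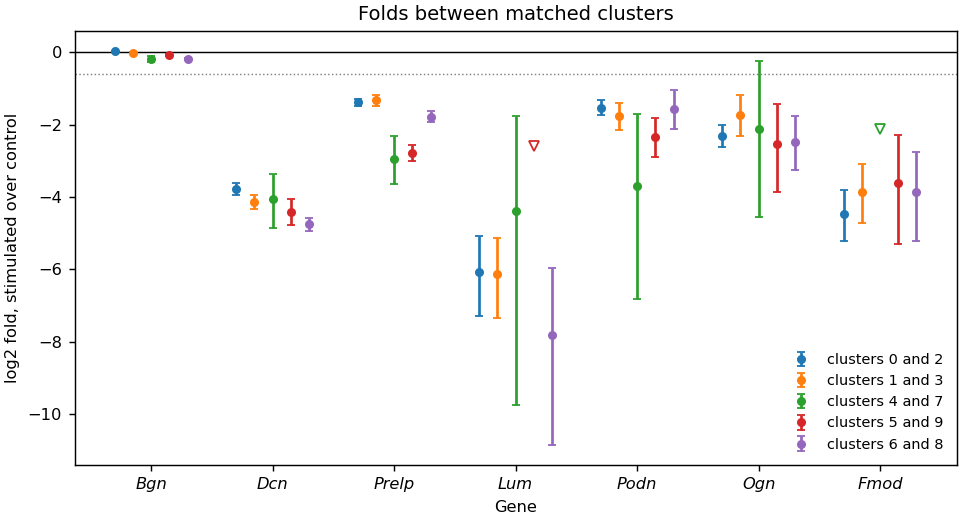
log2 fold of stimulated over control for 7 genes in the 5 pairs of matched clusters (colours), with 95% counting intervals; open triangles are upper bounds where the stimulated cluster had 0 UMIs, and the dotted line is 1.5-fold lower. Bgn stays near 0, and the points of Dcn lie between 13.7-fold and 27.1-fold lower.

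The mesothelial-like cluster 14, picked out after its values were seen, had a smaller Dcn fold. Its 23 stimulated cells had 125 CPM of Dcn (95.6 to 160.5), from 61 UMIs of which 1 cell held 19, and its 59 control cells had 199.5 CPM (174 to 227), from 224 UMIs. Dcn was thus 1.6-fold lower (1.20 to 2.16) there. At 5000 UMIs it was found in 21.7% (7.46 to 43.7) of the mesothelial-like stimulated cells, against 3.50% (3.06 to 4.00) of the fibroblast-like ones. Podn there had 1 UMI in stimulated and 16 UMIs in control cells, 6.96-fold lower (1.08 to 292). Those 23 cells are 0.308% of the stimulated library and held 5.85% of its Dcn UMIs, and cluster 6, with 6.59% of the cells, held 22.6%. By contrast the unnamed cluster 10, led by S100a11, Acta2 and Tagln and also made of both libraries, had 8.85 CPM of Dcn in stimulated and 94.5 CPM in control cells, 10.7-fold lower (4.09 to 39.7).

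Dcn and Lum were also found in the same cells. Lum had a UMI in 13.1% of control cells with a Dcn UMI (11.4 to 14.9) and in 2.09% of those without (1.57 to 2.73). The share of cells with Lum was 2.09% at 0 Dcn UMIs, 5.36% at 1, 16.8% at 2 to 4, 28.4% at 5 to 9 and 51.0% (36.3 to 65.6) among the 49 cells with 10 or more. Prelp was found in 20.9% of cells at 0 and 44.9% at 10 or more Dcn UMIs, and the mean count of Bgn was 8.39 UMIs at 0 and 13.5 UMIs at 10 or more. Fmod was found in 4.01% of control cells with a Dcn UMI (3.09 to 5.12) and 3.28% of those without (2.62 to 4.05), which overlap. In stimulated cells Prelp had a UMI in 7.30% of cells with Dcn (4.31 to 11.4) and 9.71% of cells without (9.0 to 10.5), intervals that overlap.

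Over the 4077 control cells of that depth, the genes most like Dcn by Pearson correlation of log counts included Sparc (0.37), Lum (0.34), Tnc (0.28) and Cst3 (0.28). For Lum they were Dcn (0.34), Col8a1 (0.29), Tnc (0.26), Igf1 (0.23) and Igfbp5 (0.20). For Bgn they were Sparc (0.42), Thbs1 (0.40), Col1a1 (0.38), Col1a2 (0.34) and Fn1 (0.32). These cells include the macrophage-like ones, and the lowest values for Bgn, looked up after the data were seen, were those of the macrophage markers C1qb (-0.42), Tyrobp (-0.41), Fcer1g (-0.41) and Lyz2 (-0.40). Over 6708 stimulated cells the highest values for Dcn were 0.11 with Col3a1, 0.09 with Ctsl and 0.07 with Prdx1, Ctla2a and Spon2, too weak in such sparse counts to be a finding. Bgn there was nearest to Rpl37a (0.25), Meg3 (0.24), mt-Co1 (0.23), Fn1 (0.22) and Npc2 (0.20). Cells of 1 library share depth and culture, so these values are descriptions.

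Along cell programs, cells were ordered by the share of their UMIs in a gene list and cut into 4 equal bins, which are ranges and not types. The control bins include the 130 macrophage-like cells, and how these fell over the bins was not measured. Control Dcn was 374 CPM in the top and 96.0 CPM in the lowest bin by adventitial fibroblast genes, with 426 cells within 10% of the top cut. Prelp was 164 CPM in the top and 45.2 CPM in the lowest control bin by alveolar fibroblast genes, with 337 cells near that cut, and Lum 35.2 CPM in the top and 10.2 CPM in the lowest. With cycling genes Dcn and Prelp went the other way in control cells. Dcn had 124 CPM in the top and 250.3 CPM in the lowest bin, and Prelp 46.0 CPM in the top and 109 CPM in the lowest. Bgn did so in both libraries, at 1504 CPM in the top and 1964 CPM in the lowest stimulated bin, and 1501 CPM in the top and 1978 CPM in the lowest control bin. By contractile genes, Dcn had 7.06 CPM in the top and 11.8 CPM in the lowest stimulated bin, but 282 CPM in the top and 136 CPM in the lowest control bin. By PPAR target genes Dcn had 11.9 CPM in the top and 7.11 CPM in the lowest stimulated bin, and 256 CPM in the top and 152 CPM in the lowest control bin.

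For the gene lists that follow, the shares over all genes tested were 7.75% higher and 12% lower by 1.5-fold, with a median log2 fold of -0.06. Of 16 tested genes of chondroitin and dermatan sulfate synthesis that build the sugar chains, 1 was at least 1.5-fold higher and 1 lower, near those shares, with a median log2 fold of -0.18. Chst15, a sulfotransferase, had 8.20 CPM in stimulated and 3.13 CPM in control cells (fold 2.62, 2.29 to 3.01), and Chst12, another sulfotransferase, 34.3 CPM in stimulated and 52.6 CPM in control cells (fold 0.653, 0.626 to 0.681). The chain polymerising genes Chpf and Chpf2 had folds of 0.791 and 0.766. Of 7 tested genes linked to keratan sulfate 1 was higher and 1 lower, with a median of 0.05, and the sialyltransferase St3gal1 had 54.4 CPM in stimulated and 26.7 CPM in control cells (fold 2.04), while B4galt1 (1.03) and St3gal2 (1.16) lay between.

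Of 12 tested genes of other proteoglycans 4 were higher and 3 lower (median -0.05), beside 7.75% higher and 12% lower of all genes. Sdc4, a cell surface heparan sulfate proteoglycan, had 491 CPM in stimulated and 245 CPM in control cells (fold 2.01), and Gpc4, a glypican, 16.7 CPM in stimulated and 66.7 CPM in control cells, 4.00-fold lower. Hspg2, perlecan, and Cd44, the hyaluronan receptor, lay between, with folds of 0.936 and 0.943. The collagens to which the family binds were all beyond 1.5-fold, with 3 of 11 higher, all of them chains of collagen VI, and 8 lower (median -1.30). Col1a1 had 471 CPM in stimulated and 2399 CPM in control cells, 5.10-fold lower, Col1a2 and Col3a1 were 2.78- and 2.74-fold lower, and Col14a1, a fibril surface collagen, was 33.2-fold lower (26.0 to 42.9) and reached the mean of 5 CPM only through its control level.

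All 5 tested ligands of the TGF-beta and BMP list were lower (median -1.70), where 12% of all genes were, and Tgfb2 and Bmp4 reached the mean of 5 CPM only through their control level. The folds were 3.25-fold lower for Inhba, 1.65-fold for Tgfb1, 3.21-fold for Tgfb3 and 20.9-fold (18.0 to 24.3) for Tgfb2. Of 12 tested receptors, proteases and partners 2 were higher and 5 lower (median -0.17). Mmp3, stromelysin, which can cleave decorin, had 138 CPM in stimulated and 13 CPM in control cells (fold 10.6, 9.99 to 11.3). Wisp1, whose product binds decorin and biglycan, had 46.4 CPM in stimulated and 276 CPM in control cells, 5.94-fold lower. Itgb1, an integrin chain, was 1.86-fold lower, and Lrp1, an endocytic receptor of decorin, had a fold of 1.33.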

How the data were processed

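The authors deposited, for each of the 2 libraries, a sparse matrix of raw UMI counts, listing genes by barcodes, without normalization. Per the labels the libraries were made with a droplet 3′ kit (version 2 chemistry). Per the file headers Cell Ranger 3.0.2 wrote the matrices, whereas Cell Ranger 1.3.1 and Seurat 3.0.0 stand in the submitters' processing notes; neither the genome build nor the strand setting is given in the sources used here. Groups were taken from the sample titles.

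Barcodes with at least 500 genes and at most 20% mitochondrial UMIs were kept, leaving 117193148 UMIs in stimulated and 88573140 in control cells. Counts were summed per library and divided by the library total (CPM). Folds are stimulated over control CPM, their 95% intervals come from the exact conditional Poisson method, a count of 0 was set at 3, and genes that averaged 5 CPM or more were compared. For shares of cells every cell was thinned to 5000 UMIs without replacement, which left out 760 stimulated and 626 control cells, with exact binomial intervals. Concentration was given for members with at least 100 UMIs at that depth. Cells were clustered with scanpy 1.11.5 and leidenalg 0.10.2 (2000 variable genes, 30 principal components, 15 neighbours, resolution 0.5), without integration. A cluster took the name of a type other than fibroblast where 3 or more of its markers were each found in 25% of cells or more and 2 were among the 10 leading genes. Of the rest, clusters with a median depth under that of their library by a factor of over 3 (4, 7, 10 and 13), or with more leading markers of another type than of fibroblasts (5), stayed unnamed, and the others were fibroblast-like. Doublets were not called and remain. Leading genes were ranked by fold after adding 25 CPM, and clusters paired if each was the other's best match with at least 10 of 50 leading genes in common. The interval code was checked on simulated libraries of stimulated over control with Poisson counts, the model that the interval assumes. It covered the truth in 95.1% of 8585 unchanged genes, 96.3% of 54 genes set 0.05-fold and 91.2% of 34 genes set 0.5-fold. Coverage near 95% was thus set in advance, and the uneven spread of counts over cells was not simulated.

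Besides the 8 members and the other family genes, the genes named are, for each list, the 3 with the highest mean CPM and the one with the largest fold, the 5 nearest by correlation to Dcn, Lum and Bgn, and leading genes of clusters described; 1 gene selected this way is not reported here. The members and lists were chosen with earlier results of these data known.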

Additional observations from a re-analysis of the deposited data

How the results depend on the processing

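Over 10 alternatives for cells and scaling (other cell filters, TMM and median-of-ratios scaling, equal weight per cell, fibroblast-like clusters only, non-cycling cells, no deepest 5% of cells), 6 members kept their direction in all: the log2 fold ranged from -4.50 to -4.28 for Dcn, -7.69 to -6.26 for Lum, -4.67 to -4.12 for Fmod, -2.37 to -2.14 for Ogn, -2.0 to -1.69 for Prelp and -1.81 to -1.49 for Podn. Bgn ranged from -0.08 to 0.05 and Aspn from -0.52 to 0.20, and over the matched clusters Aspn ranged from -3.26 to 3.86, so neither has a set direction. TMM scaling put the median of all genes tested at 0.04. The count of members at least 1.5-fold lower, 5 of 6, was 2 of 3 at a mean of at least 20 CPM, and 3 in clusters 5 and 9, where fewer members reach the filter; in the other settings it was between 4 and 6. Of the alternatives chosen after seeing the data, leaving out control clusters 8 and 11 gave -3.66 for Dcn. With 1 library per group, replicates could not be left out. No paired analysis was possible because each group has 1 library. Scarce members (Lum and Fmod in stimulated cells, Aspn) are limited by depth, and between-culture variation was not measured.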
